A study of Mus musculus with 6 samples.

Results

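Replication-independent histone variants are the histone proteins that cells can make and place into chromatin outside S phase. The 9 genes examined here, H2afx, H2afz, H2afv, H2afy, H2afj, H3f3a, H3f3b, H1f0 and H1fx, were taken by symbol from the 39017 genes of the count table. All 9 had enough counts to be among the 18268 genes tested.

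The libraries were prepared from induced germinal center B cells (iGBs), which are splenic B cells grown on 40LB cells, a fibroblast line that displays CD40L and secretes BAFF. Both groups came from C57BL6/J mice, received CD40L, BAFF and IL-4 (5 ng/ml in the labels, a lower concentration in the methods of the study) and were harvested at day 3.5, after the feeder cells had been removed with antibodies to H2Kd (written H2K in the labels) and magnetic beads. Control cells carried Cg1-cre alone, and Prmt1-null cells carried Cg1-cre with Prmt1f/f, with 3 mice and 1 library per mouse in each group. Each group had 1 male and 2 females, and the age of the mice was not given in the sources used here. Cg1-cre is expressed once a B cell is activated, so the gene was lost during the culture and the Control cells expressed the same recombinase. The comparison asks which transcripts differed in activated B cells that had deleted Prmt1, the main enzyme for asymmetric dimethylation of arginine, histone arginines included.

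Prmt1 normalized counts were 3964, 3924 and 4838 in Control libraries and 1745, 1478 and 1477 in Prmt1-null libraries, a log2 fold change of -1.44 with a standard error (SE) of 0.095. The adjusted p was 1.11e-05 (edgeR, quasi-likelihood test, p-values adjusted by the Benjamini-Hochberg method over all genes tested). Total counts ran from 45343250 to 62774232 per library, so that 3 counts, the floor used here for detection, corresponded to 0.0475 to 0.0657 CPM (counts scaled to the library size), a limit that covers counting error only. The summed level of 6 B cell markers was 5969 to 6338 CPM in Control and 6321 to 6650 CPM in Prmt1-null libraries. Of the 6, 1 was called in DESeq2 and none in edgeR. In edgeR 2 were higher at an unadjusted p under 0.05, beside 6.5% of all genes. The 5 measured plasma cell markers summed to 821 to 903 CPM in Control and 956 to 1038 CPM in Prmt1-null libraries, with no overlap between the sums. Of the 4 tested in edgeR none was called, and the groups did not overlap for 1 (25%, beside 9.95% higher among all genes). At an unadjusted p under 0.05, 2 of the 4 were higher (50%, beside 6.5% of all genes). DESeq2 called 1 plasma cell marker and limma-voom called 1. T cell markers summed to at most 3.01 CPM and macrophage and myeloid markers to 30.9 to 38.1 CPM in the 6 libraries. Fibroblast markers of the feeder summed to 15.6 to 19.5 CPM in Control and 19.3 to 24.3 CPM in Prmt1-null libraries, with Postn and Lum at 0. The 6 of them that were tested had positive log2 fold changes, with a median of 0.28 and no call in edgeR. There 2 had an unadjusted p under 0.05, beside 6.5% higher among all genes. The groups did not overlap for 2 of the 6, beside 9.95% higher among all genes. The part of these cells in the histone values was not tested, and in bulk libraries fewer cells of a type cannot be told apart from less RNA per cell.

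Most histone protein in dividing cells comes from replication-dependent genes, which lie in clusters, are transcribed in S phase and give mRNAs that end in a conserved stem-loop and not in a poly(A) tail. Variant genes instead mostly give polyadenylated mRNAs through the whole cell cycle, and many of these are spliced. Among the 9, H2afx, H2afj, H1f0 and H1fx have 1 annotated exon block each. Variant proteins are placed by dedicated chaperones, as HIRA and DAXX do for H3.3 and the SRCAP and TIP60 complexes for H2A.Z. H2AX is the variant best known in B cells, because its phosphorylated form marks the DNA breaks of class switch recombination. The libraries were made from total RNA depleted of ribosomal RNA, a preparation that does not select for poly(A) tails, so both kinds of histone mRNA could be counted.

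The stem-loop is the sequence feature by which replication-dependent histone mRNAs are known. Its letters (GGC, any base, CTTTT, any base, AG, any base, GCC) were searched on the sense strand of whole protein-coding transcripts of GENCODE M21 (GRCm38), and the pattern was widened to hold H2afx after its sequence had been seen. It was present in 39 of the 64 replication-dependent histone genes tested, in 45 of all 21901 genes with such a transcript (0.205%) and in 1 of the 9 variants. A gene whose annotated transcript ends before its stem-loop cannot show the pattern, so genes without a match do not necessarily lack a stem-loop. Hist1h1t, Hist3h2a and Hist3h2ba, which are listed here among further histone genes and not among the 64, also carried the stem-loop letters. Among the 9 the gene was H2afx, at chr9:44335240-44335255 on the plus strand, 47 bases after the stop codon. Its annotated transcript continued for 822 bases past the stem-loop, within the range of the replication-dependent genes, from 3 bases (Hist1h2ap) to 4884 bases (Hist1h1d). The sequences of H2afx, Hist1h2ab (chr13:23751572-23751587, plus strand) and Hist1h3c (chr13:23745047-23745062, minus strand) are given to show this shared end, 5′ to 3′ with the stem-loop in capitals, and the coordinates are those of the capitals.
H2afx: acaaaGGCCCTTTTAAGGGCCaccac
Hist1h2ab: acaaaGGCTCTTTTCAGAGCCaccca
Hist1h3c: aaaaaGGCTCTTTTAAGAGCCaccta

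H3f3a and H3f3b encode the same H3.3 protein from different chromosomes. Their coding sequences of 408 bases without the stop codon differed at 95 bases, 81 of them at the last base of a codon, and were 76.7% identical, with a longest shared run of 23 bases. The first 60 coding bases of H3f3a (chr1:180811867-180811926, minus strand) and of H3f3b (chr11:116023950-116024009, minus strand) are given to show how reads of the pair can be told apart, with the 13 differing bases in capitals.
H3f3a: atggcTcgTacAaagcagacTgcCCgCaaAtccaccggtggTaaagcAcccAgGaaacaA
H3f3b: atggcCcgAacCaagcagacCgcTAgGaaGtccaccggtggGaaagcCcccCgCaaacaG

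The 9 genes covered a wide range of levels. On the scale of CPM per kilobase of exon, averaged over the 6 libraries, the order was H3f3b (113.6), H3f3a (98.1), H2afx (87.5), H2afv (36.7), H2afy (20.9), H2afz (9.58 to 16.1 over the libraries), H1f0 (6.40), H2afj (2.76) and H1fx (0.996). Each gene was above the next in all 6 libraries, apart from H3f3a and H2afx, whose levels overlapped among Control libraries and whose order held in 5 of 6. The pair of H3.3 genes and H2afx were therefore the most abundant variants in both groups, and the linker variant H1fx was the least abundant.

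No variant gene passed an adjusted p of 0.05 in edgeR's quasi-likelihood test, where 1.19% of all genes tested did (0.591% higher, 0.602% lower, and 1.18% when a mean normalized count over 100 was also asked), and neither DESeq2, which gave H1fx no adjusted p, nor limma-voom called any of them. At an unadjusted p under 0.05, 3 of the 9 (H1f0, H1fx and H2afz) were lower in Prmt1-null iGBs and none was higher, beside 7% lower, 6.5% higher and 13.5% in either direction among all genes. The groups did not overlap for 3 of the 9 (H1f0, H1fx and H3f3a), each lower in Prmt1-null libraries, beside 9.92% lower, 9.95% higher and 19.9% in either direction among all genes. The log2 fold change was negative for 8 of the 9 and for 50.1% of all genes, with a median of -0.12 over the 9 and of -0.00082 over all genes tested. With 3 libraries per group the two-sided exact permutation test cannot give a p under 0.10, which it gave for H1f0, H1fx and H3f3a.

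**Figure D1:**
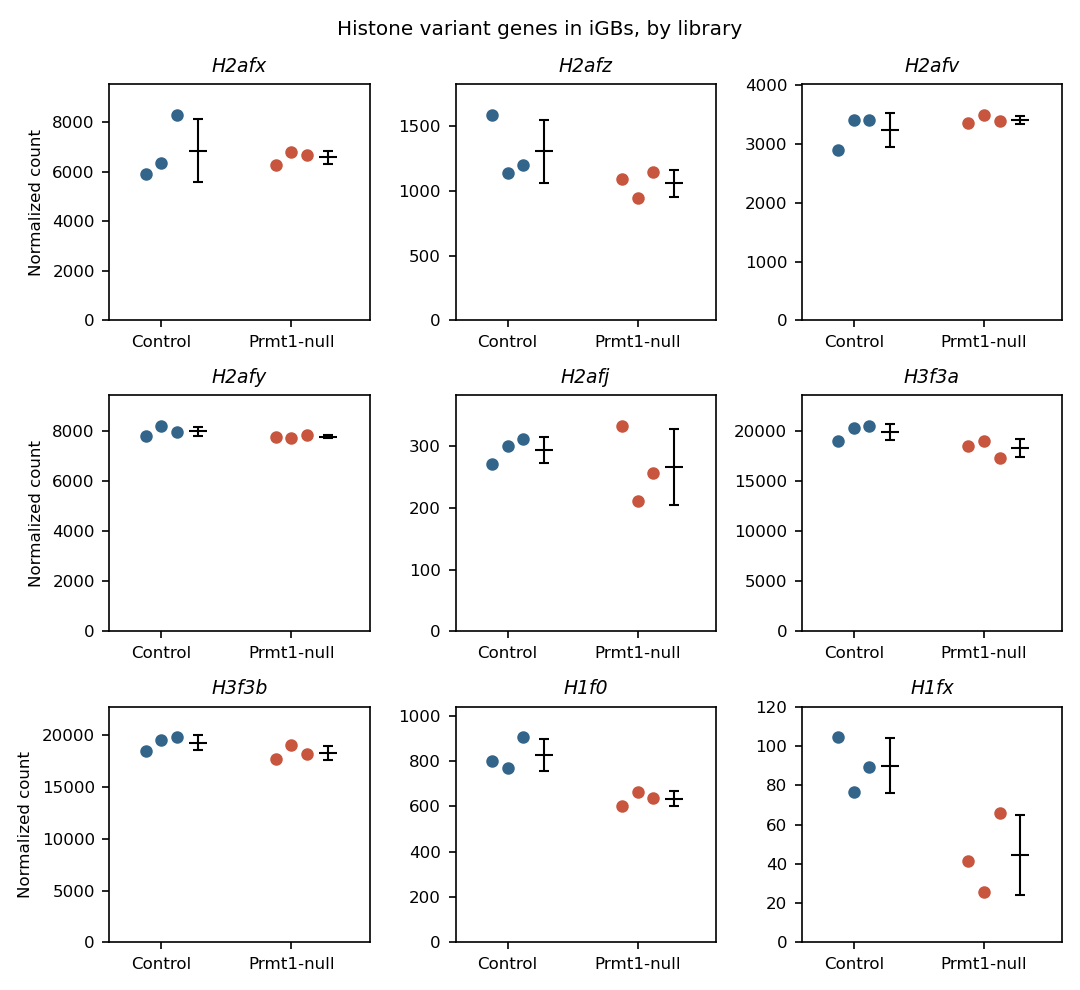
Normalized counts (y axis, from 0) of the 9 variant genes in each library, with Control and Prmt1-null libraries 1 to 3 from left to right as points and the group mean ± SD as a bar. H1f0 and H1fx sit lower in all 3 Prmt1-null libraries, H3f3a lies slightly lower, and the points of the other 6 genes overlap between groups.

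**Figure D2:**
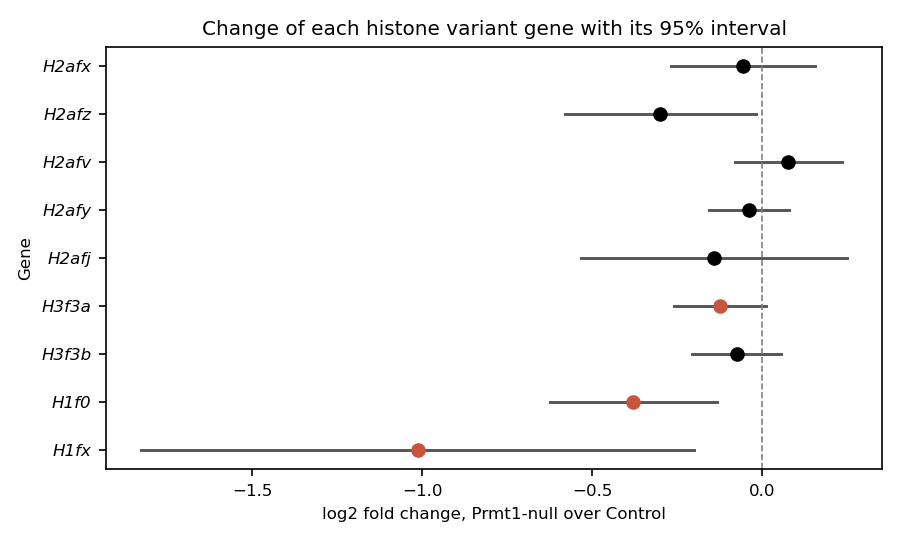
Log2 fold change of each variant gene, Prmt1-null over Control (x axis), with its 95% confidence interval from edgeR as a line and genes whose groups do not overlap in red. H1fx has the lowest value (-1.01) and the widest interval, and H2afv is the only gene above 0 (0.08).

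H1f0 and H1fx encode linker histones, which bind the DNA that enters and leaves the nucleosome. H1f0 encodes H1.0, known to accumulate in cells that leave the cell cycle or differentiate. Its normalized counts were 799.5, 770.9 and 904.6 in Control and 601.4, 664.6 and 636.2 in Prmt1-null libraries. All 3 Prmt1-null values lay under the lowest Control value, and the mean was 634.1 ± 31.7 (SD, n = 3) against 825.0 ± 70.4 (n = 3), or 76.9% of Control. The log2 fold change was -0.38 (SE 0.114, 95% interval -0.62 to -0.13), with an adjusted p of 0.139 in edgeR's quasi-likelihood test, the smallest of the 9. The difference was negative in each of the 7 alternative fits and each of the 6 fits without a library, and DESeq2 gave the lowest adjusted p, 0.0503. H1f0 lies on chromosome 15 (79028450 to 79030504, plus strand, GRCm38), and none of the 50-base windows of its exons was found in another annotated gene, a measure of how far reads could be confused with copies. The antisense gene Gm49544, not analysed here, shares 163 exon bases with H1f0, and without strand its reads there could not be told apart.

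H1fx encodes H1X, a linker histone known to be made in many tissues at low levels. It had 86, 87 and 81 raw counts in Control libraries and 41, 28 and 70 in Prmt1-null libraries, which normalized to 104.5, 76.4 and 89.2 against 41.5, 25.8 and 66.2. The groups did not overlap, but Prmt1-null replicate 3 lay much closer to the Control libraries than replicates 1 and 2 did. The mean fell from 90.0 ± 14.1 to 44.5 ± 20.3 (SD, n = 3 each), a log2 fold change of -1.01 with an SE of 0.378 and a 95% interval of -1.83 to -0.20, and an adjusted p of 0.237 in edgeR. Leaving out 1 library at a time gave log2 fold changes from -1.42 to -0.73. The gene lies on chromosome 6 (87980421 to 87981637, minus strand), where the antisense gene Gm5577 shares 213 exon bases with it. Gm5577 had far more normalized counts than H1fx, 953.4 ± 125 in Control and 909.4 ± 105 in Prmt1-null libraries, and the counting's strand setting is not given in the sources used here. Without strand, reads of the shared bases could not be told apart. The miRNA gene Gm47286, not analysed here, shares 24 bases on the same strand.

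Per kilobase, H1f0 and H1fx together made up 1.30%, 1.13% and 1.12% of H1 mRNA in Control and 0.946%, 0.911% and 0.898% in Prmt1-null libraries, counted with the 5 replication-dependent H1 genes. This share was lower in every Prmt1-null library than in any Control library, with means of 0.918 ± 0.0248% and 1.18 ± 0.102% (SD, n = 3 each). The 5 replication-dependent H1 genes themselves had a median log2 fold change of -0.18.

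The H3.3 genes had log2 fold changes of smaller size than H1f0 and H1fx, none of them called, and the difference between the pairs was not tested. H3f3a normalized counts were 18986, 20234 and 20444 in Control and 18516, 18971 and 17278 in Prmt1-null libraries, means of 19888 ± 788 and 18255 ± 876 (SD, n = 3 each). The groups were separated only by the gap between 18986 and 18971, and the log2 fold change of -0.12 (SE 0.063, 95% interval -0.26 to 0.01) had an adjusted p of 0.423 in edgeR. H3f3b normalized counts were 18451, 19534 and 19764 in Control and 17676, 19022 and 18110 in Prmt1-null libraries. These groups overlapped, and the log2 fold change was -0.08 (SE 0.061, 95% interval -0.21 to 0.06, adjusted p 0.648 in edgeR). Summed, the pair gave 39138 ± 1489 in Control and 36524 ± 1335 in Prmt1-null libraries, with overlap.

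The balance between the H3.3 genes was even and close in the groups. H3f3b supplied 49.3%, 49.1% and 49.2% of their normalized counts in Control and 48.8%, 50.1% and 51.2% in Prmt1-null libraries, and the groups overlapped. Per kilobase, H3.3 made up 5.06%, 5.32% and 4.36% of the counted H3 mRNA in Control and 5.43%, 5.77% and 4.74% in Prmt1-null libraries, measured against 12 replication-dependent H3 genes. The shares overlapped too.

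H3f3a (chromosome 1, 180800832 to 180813943, minus strand) has many processed copies in the genome, and reads that map to more than 2 places were not counted by the authors. Of the 50-base windows of H3f3a, 87.7% occurred in no other gene and 9.06% in 3 genes or more, against 93.1% and 1.76% for H3f3b. Among copies in the count table, those that shared the most windows with H3f3a were H3f3c, with a log2 fold change of 0.20 (adjusted p 0.496 in edgeR), and Gm12657, with -0.19 (adjusted p 0.245). On the opposite strand, Gm17275 shares 638 exon bases with H3f3a and averaged 12748 ± 655 in Control against 11265 ± 781 in Prmt1-null libraries (log2 fold change -0.18, adjusted p 0.24), again with no overlap between groups. H3f3aos, also on the opposite strand, shares 160 exon bases and had 28 to 105 raw counts. The values of H3f3a are uncertain to this extent, and H3f3b (chromosome 11, 116021912 to 116027962, minus strand) shares less with other genes.

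H2afz and H2afv encode the H2A.Z proteins H2A.Z.1 and H2A.Z.2, which flank the start sites of active genes. H2afz lies on chromosome 3 (137864487 to 137866922, plus strand) and H2afv on chromosome 11 (6427229 to 6444443, minus strand). H2afz normalized counts were 1583, 1136 and 1198 in Control and 1089, 944.0 and 1145 in Prmt1-null libraries. Control replicate 1 stood above the other 5 libraries, and Prmt1-null replicate 3 lay above Control replicate 2, so the groups overlapped. Control replicate 1 and Prmt1-null replicate 3 were the males, and within each sex the Prmt1-null values lay under the Control values. The log2 fold change of -0.30 (SE 0.131, 95% interval -0.58 to -0.02) had an unadjusted p of 0.038 and an adjusted p of 0.325 in edgeR (0.186 with sex as a covariate), and it was -0.14 without Control replicate 1. Only 83.1% of the 50-base windows of H2afz occurred in no other gene, the lowest share of the 9, with the copy Gm8203 sharing the most.

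H2afv, whose windows were all found in no other gene, lay higher than H2afz in every library. Its normalized counts were 2898, 3398 and 3407 in Control and 3352, 3485 and 3393 in Prmt1-null libraries. Control replicate 1, the highest for H2afz, was the lowest for H2afv, and the groups overlapped (log2 fold change 0.08, SE 0.0731, 95% interval -0.08 to 0.23, adjusted p 0.716 in edgeR). Without that library the log2 fold change of H2afv was 0.0067. The sum of the pair was near constant, with 4481, 4534 and 4604 in Control and 4442, 4429 and 4537 in Prmt1-null libraries. H2afz supplied 35.3%, 25.1% and 26.0% of the pair's normalized counts in Control and 24.5%, 21.3% and 25.2% in Prmt1-null libraries.

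H2afx encodes H2AX, whose phosphorylation next to DNA breaks recruits repair factors. Its normalized counts were 5904, 6378 and 8286 in Control and 6284, 6806 and 6667 in Prmt1-null libraries. Control replicate 3 stood above the other 5 libraries, which lay within a narrow range, and the groups overlapped. The log2 fold change was -0.06 (SE 0.0986, 95% interval -0.27 to 0.15, adjusted p 0.85 in edgeR), and it changed sign to 0.10 without Control replicate 3. That library also had the highest summed level of the 64 replication-dependent histone genes, 9366 CPM, where the other Control libraries had 7359 and 7678 CPM and the Prmt1-null libraries 6778, 6911 and 7716 CPM. The part of that library's histone level in the H2afx value was not tested. The gene lies on chromosome 9 (44334694 to 44336077, plus strand), and 6.14% of its 50-base windows were shared, mostly with replication-dependent H2A genes.

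As a share of H2A mRNA in the same library, H2afx was slightly higher in Prmt1-null iGBs, but its own level was not. It was at 89.3 CPM per kilobase in Control and 85.8 in Prmt1-null libraries on average, while the summed replication-dependent H2A genes were at 1464 ± 259 and 1289 ± 77.6 CPM per kilobase (SD, n = 3 each, overlapping). Per kilobase H2afx made up 5.64%, 5.19% and 5.64% of H2A mRNA in Control and 5.92%, 6.23% and 5.65% in Prmt1-null libraries, counted with the other 4 H2A variants and 18 replication-dependent H2A genes. These genes share sequence and reads that map to more than 2 places were not counted, so the shares are of counted reads only. Gm20634, which shares 74 windows with H2afx and had 9568 to 13285 raw counts, was not in the sum. The groups did not overlap, but the lowest Prmt1-null share and the highest Control share were nearly equal. The 5 H2A variants together made up 10.9%, 9.79% and 9.50% in Control and 11.1%, 11.2% and 10.4% in Prmt1-null libraries, which overlapped.

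**Figure D3:**
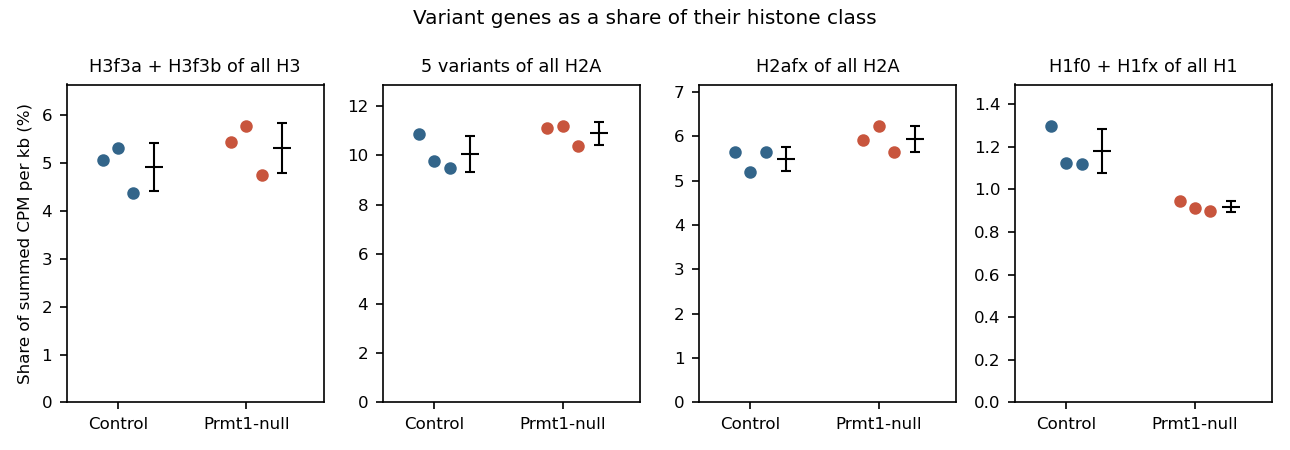
Share of variant mRNA within each histone class (y axis, percent, from 0) in Control and Prmt1-null libraries 1 to 3 from left to right, with the mean ± SD as a bar. The share of H1f0 and H1fx in H1 is lower in all Prmt1-null libraries, from 0.898% to 0.946% against 1.12% to 1.30%, and the share of H3.3 in H3 overlaps between groups.

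H2afy encodes macroH2A1, which carries a large macro domain and is known from silent chromatin and the inactive X chromosome, and lies on chromosome 13 (56073619 to 56136361, minus strand). Its normalized counts were 7824, 8193 and 7951 in Control and 7756, 7728 and 7849 in Prmt1-null libraries, the narrowest spread of the 9 genes relative to the mean (coefficients of variation of 2.35% and 0.813%). Prmt1-null replicate 3 overlapped Control replicate 1, and the log2 fold change of -0.04 (SE 0.0549, 95% interval -0.16 to 0.08) had an adjusted p of 0.815 in edgeR, with the 95% interval of the fold from 0.897 to 1.06. The antisense gene Gm47071, not analysed here, shares 501 exon bases with H2afy, and the miRNA genes Gm44335 and Gm44364, also not analysed, lie opposite 141 exon bases of H2afx and of H2afj. H2afj encodes H2A.J, a variant known to accumulate in senescent cells, and lies on chromosome 6 (136808244 to 136810074, plus strand). It had 270.9, 299.4 and 310.7 normalized counts in Control and 332.1, 211.1 and 256.2 in Prmt1-null libraries. The Prmt1-null values lay on both sides of the Control values, with a log2 fold change of -0.14 (SE 0.182, 95% interval -0.53 to 0.25), which was 0.01 without Prmt1-null replicate 2.

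A further list held 14 histone genes, variants together with Hist3h2a, Hist3h2ba and a pseudogene, all kept apart from the 64 replication-dependent genes. Of these 14, 6 had enough counts to be tested, while 5, among them H2afb1, H2afb2 and H2afb3, had no count in any library. None of the 6 was called in edgeR or limma-voom, and 1 was in DESeq2. In edgeR 1 was higher and 1 lower at an unadjusted p under 0.05, beside 6.5% and 7% of all genes. Cenpa, which encodes the H3 variant of centromeres, had 1581, 1548 and 1652 normalized counts in Control and 1923, 1955 and 1982 in Prmt1-null libraries. All Prmt1-null values lay above Control, with a log2 fold change of 0.29 (SE 0.0799) and an adjusted p of 0.0992 in edgeR. The pseudogene Hist3h2bb-ps had a log2 fold change of -0.74 (adjusted p 0.141).

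The replication-dependent histones, the counterpart of the variants, had a median log2 fold change of -0.19. Of the 64 genes tested, 60 had a negative value, 5 fell (7.81%, beside 0.602% of all genes) and none rose at an adjusted p under 0.05 in edgeR. The genes that fell were Hist1h2br (-0.39, adjusted p 0.011), Hist1h2an (-0.44, adjusted p 0.0391), Hist1h2bn (-0.34, adjusted p 0.0399), Hist1h3h (-0.32, adjusted p 0.0485) and Hist1h2bm (-0.37, adjusted p 0.0498), 3 of them H2B genes. H2B genes had the lowest class median, -0.33, and H4 genes the highest, -0.11. Without Control replicate 3 the median over the 64 genes was -0.07 and 1 gene was called, and without Prmt1-null replicate 1 or 2 none was called. The members of this list share sequence, and reads common to several of them could be lost or misplaced. As a share of all histone counts, the 9 variants made up 12.2%, 12.4% and 10.7% in Control and 12.9%, 13.1% and 11.5% in Prmt1-null libraries, which overlapped.

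The factors that handle the variants were described from lists of their known members, which are given by their counts and medians. Among all genes, 6.5% were higher and 7% lower at an unadjusted p under 0.05 in edgeR, and DESeq2 called 708. Of 9 genes for H3.3 deposition, 8 had negative values with a median of -0.04. None was called in edgeR (1 lower at an unadjusted p under 0.05) or limma-voom, and 1 was in DESeq2. The smallest p-values were those of Asf1b, an H3-H4 chaperone (2995 ± 104 against 2396 ± 253 normalized counts, n = 3 each; log2 fold change -0.32, adjusted p 0.0781 in edgeR), and Ubn1, a subunit of the HIRA complex (-0.11, adjusted p 0.421). Of 14 replication-coupled and general chaperones none was called in edgeR, DESeq2 or limma-voom and 0 had an unadjusted p under 0.05 in edgeR, with a median of -0.03. Chaf1b of the CAF-1 complex was at -0.17 (adjusted p 0.427) and Supt16 of FACT at -0.12 (adjusted p 0.431).

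Among 20 genes for the exchange and removal of H2A.Z, the median was 0.0047. None was called in edgeR (2 higher and 1 lower at an unadjusted p under 0.05) or limma-voom, and 1 was in DESeq2 and 1 in edgeR with sex as a covariate. Anp32e, the chaperone that takes H2A.Z out of chromatin, had 6809, 6716 and 6018 normalized counts in Control and 4962, 5150 and 5720 in Prmt1-null libraries. Its groups did not overlap, and its log2 fold change of -0.30 (SE 0.0695) had an adjusted p of 0.0529 in edgeR, just over the threshold. Ruvbl1, an ATPase shared by the SRCAP and TIP60 complexes, was at 0.36 (adjusted p 0.245).

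Of 16 genes that phosphorylate H2AX or read the mark, none was called in edgeR and 12 had negative values. Their median was -0.09, and -0.03 without Control replicate 1. For 5 of the 16 the groups did not overlap, each lower in Prmt1-null libraries, beside 9.92% of all genes. Rad50, of the complex that senses DNA ends, had 2259, 2198 and 1995 normalized counts in Control and 1696, 1721 and 1609 in Prmt1-null libraries (log2 fold change -0.36, SE 0.0825, adjusted p 0.0529 in edgeR). Brca1, which acts in repair by homologous recombination, had 2833, 3114 and 2821 in Control and 2339, 2376 and 2449 in Prmt1-null libraries (log2 fold change -0.29, SE 0.0702, adjusted p 0.0633 in edgeR). Both were lower in every Prmt1-null library than in any Control library, and both were named for the smallest p of the list. The groups overlapped for H2afx, as they did for the genes of this list outside the 5. DESeq2 called 3 genes of this list and limma-voom 1, beside 708 and 251 over all genes, and 5 were lower at an unadjusted p under 0.05 in edgeR, beside 7% of all genes.

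**Figure D4:**
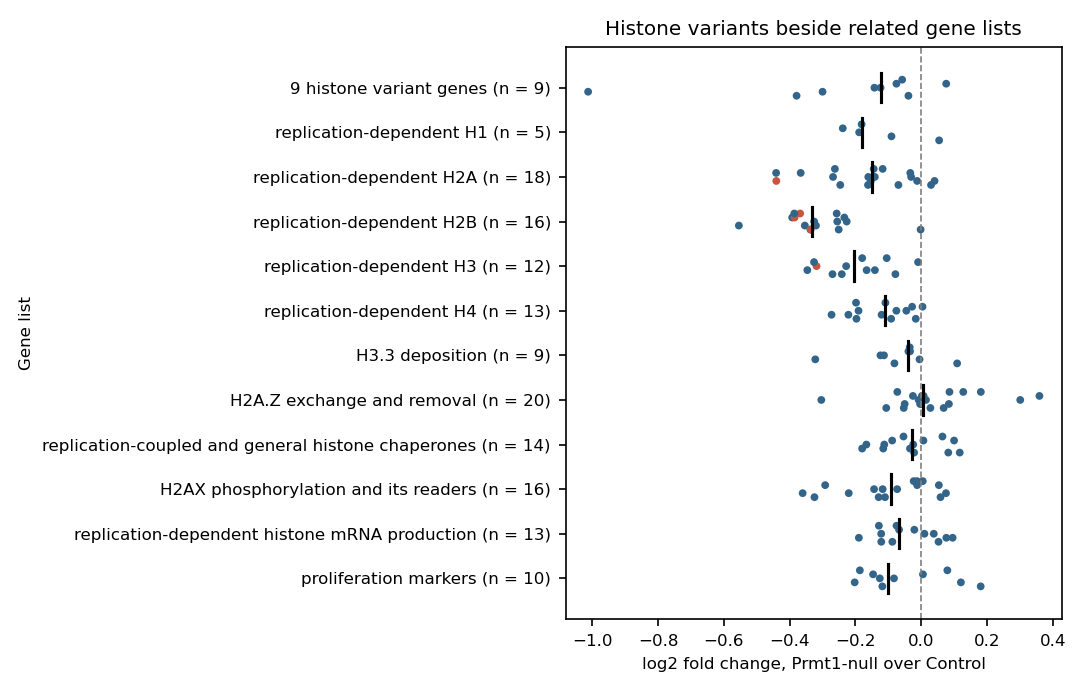
Log2 fold change, Prmt1-null over Control (x axis), of each tested gene in the lists named, with genes of an adjusted p under 0.05 in red, the others in blue and the median of each list as a black bar. Among the lists plotted, red points occur in the replication-dependent histones alone (5 genes), and the medians of the lists of chaperones and exchange factors lie near 0.

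The 13 genes that make replication-dependent histone mRNA had a median of -0.07, which was 0.02 without Control replicate 1. None was called in edgeR or limma-voom, and 1 was in DESeq2. In edgeR 1 was lower at an unadjusted p under 0.05, beside 7% of all genes. Cpsf3, the nuclease that cuts these mRNAs, was at -0.19 (adjusted p 0.153), and Srrt was at -0.13 (adjusted p 0.407). Slbp, which binds the histone stem-loop that H2afx also carries and was named for this role after its value was seen, was at -0.07 (adjusted p 0.717). Of 10 proliferation markers none was called in edgeR or limma-voom and 2 were in DESeq2, which called 708 of all genes. In edgeR 1 was higher and 3 were lower at an unadjusted p under 0.05, beside 6.5% and 7% of all genes. The groups did not overlap for 1 higher and 3 lower markers, beside 9.95% and 9.92% of all genes. The median log2 fold change was -0.10, and 0.01 without Control replicate 1. Mcm3, of the replicative helicase, was at 0.18 (adjusted p 0.181 in edgeR), and Top2a, which untangles DNA in mitosis, at -0.19 (adjusted p 0.209). The part of proliferation in the histone values was not tested.

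H1f0 was the variant with the smallest p-value. The genes whose log2 CPM followed it most closely over the 6 libraries were Iqcg (Pearson r = 0.993), Pdcd1lg2 (r = 0.991) and Idua (r = 0.991), out of 13091 genes with a mean normalized count over 100. These 6 points fall into the 2 groups and 53 genes had an r over 0.95, so the likeness is given as a description of these libraries.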

How the data were processed

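The authors trimmed reads with Trimmomatic 0.32, aligned them to mm10 (GRCm38) with STAR 2.3.0e and deposited raw exon counts per Ensembl gene from featureCounts 1.4.4, made from primary alignments to at most 2 locations; the strand setting is not given in the sources used here. Groups and replicate numbers came from the labels. The 2 groups were tested with edgeR 4.0.16 under R 4.3.3 (filterByExpr with a minimum count of 10, TMM, glmQLFit and glmQLFTest, Benjamini-Hochberg over 18268 genes), without the 398 chromosome Y genes. A gene was called at an adjusted p under 0.05. The fit was tested on simulated data. Of the genes, 37693 matched GENCODE M21 by ID, 803 by symbol and 521 not at all. Normalized counts are CPM multiplied by a common library size. Alternatives were DESeq2 size factors in edgeR, DESeq2 1.42.0, limma-voom 3.58.1, no filter, a replicate block, sex as a covariate, chromosome Y kept and each library left out.

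The 9 genes and the related lists were chosen with earlier results of these data known. Genes were named by rule: the 9 variants, Prmt1, the called genes of each related list or else the 2 with the smallest p, the 3 most like the variant with the smallest p, and overlapping genes and copies found in the annotation. Slbp was named outside this rule. Each library was from a separate mouse, and no 2 replicates agreed within sampling noise. Reads carry no molecular identifiers.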

Additional observations from a re-analysis of the deposited data

How the results depend on the processing

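No variant gene was called under any of the 7 alternatives or without any 1 of the 6 libraries. H1fx had no adjusted p from DESeq2. The direction changed for H2afx without Control replicate 3 (0.10, adjusted p 0.489; range without 1 library -0.15 to 0.10) and for H2afj without Prmt1-null replicate 2 (0.00607; range -0.33 to 0.00607). H1f0 stayed between -0.43 and -0.31 without 1 library, with adjusted p from 0.176 to 0.399, and H1fx between -1.42 and -0.73. The number of all genes called was 218, and it was 708 with DESeq2, 710 without the filter on low counts and 31 (without Prmt1-null replicate 2) to 350 (without Control replicate 3) with 1 library left out; the cause was not tested. Of the replication-dependent histones, 5 genes were called, 19 with DESeq2, 24 without the filter and 0 to 5 with 1 library left out. Without the filter 3 genes of the H2AX list were called, and 1 each of the further histone genes, H3.3 deposition, H2A.Z exchange and plasma cell markers. With sex as a covariate, 1 each of the H2AX, H2A.Z exchange and plasma cell lists was called. Without Control replicate 3, 2 of the H2AX list were called, and 1 each of the further histone genes, H2A.Z exchange and plasma cell lists. With a replicate block 152 genes were called and no variant gene changed its call. Deviations of same-numbered libraries correlated at -0.20, 0.14 and -0.24 over 13092 genes, so the numbers did not pair the libraries; Control replicate 1 correlated best with Prmt1-null replicate 3 (0.36), both from males. At the depth of these libraries counting error limits mainly H1fx, with 28 to 87 raw counts.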
